A study of Mus musculus with 32 samples.

Results

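The 10 genes Dock10, Dpp4, Adgrg7, Kynu, Ryr2, Tnnt3, Map3k15, Ctse, Slamf7 and Ptpn22 were followed in the mouse B cell lymphoma line BAL17, which comes from BALB/c mice, and in its derivative BAL17VII. They were picked out of 19938 genes with a symbol of their own on the array because they differed widely between the cultured lines or between brains implanted with them at day 21. Each had 1 probe set, and none of these was shared with another gene. The genes were thus chosen by their levels in the lines and in the day 21 brains, and these levels are given as a description without a test.

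The cultured lines were profiled on 6 arrays each. Brains of BALB/c wild-type mice that had received 500000 BAL17 cells were profiled at day 21 (5 brains) and day 28 (5 brains), brains with as many BAL17VII cells at day 21 (5 brains), and brains injected with PBS at day 28 (5 brains). There was no PBS group at day 21 and no BAL17VII group at day 28. Separate cultures are not named for the 6 arrays of a line, so their spread may be technical. Lines and brains carry different code series in the labels, and whether their arrays were normalized together is not known, so a level in culture set beside a level in brain carries that limit throughout. Values are log2 intensities, on which a step of 1 is a doubling. The median of the named probe sets lay between 6.54 and 6.77 on the arrays. A value below it is close to background, where differences shrink.

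The genes share no pathway. Dock10 encodes a member of the DOCK family, known from the movement of lymphocytes. Dpp4 encodes the surface peptidase CD26, and Adgrg7 an adhesion G protein-coupled receptor. Kynu encodes kynureninase, an enzyme of tryptophan breakdown. Ryr2 encodes a calcium release channel of the endoplasmic reticulum that is used in heart and neurons, and Tnnt3 the troponin T of fast skeletal muscle. Map3k15 encodes a stress-responsive MAP kinase kinase kinase, and Ctse the aspartic protease cathepsin E. Slamf7 is a receptor of the SLAM family on plasma cells and natural killer cells, and Ptpn22 a phosphatase that restrains antigen receptor signalling. A description of the genes as non-immune does not hold for Slamf7 and Ptpn22, nor for Dpp4, which is known from T cells. Nor does it hold without limit for Dock10, or for Ctse, which is also known from phagocytes.

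RefSeq promoter windows (GRCm38.p6, 250 bases before to 50 after the start) were matched for 6 of the 10 genes. The 3 that were near background in BAL17 and high in BAL17VII cells are shown, with Ptpn22, which changed sides between culture and brain. Capitals mark exact matches to the motifs searched, on either strand.
Dpp4, chr2:62412182-62412481, minus strand: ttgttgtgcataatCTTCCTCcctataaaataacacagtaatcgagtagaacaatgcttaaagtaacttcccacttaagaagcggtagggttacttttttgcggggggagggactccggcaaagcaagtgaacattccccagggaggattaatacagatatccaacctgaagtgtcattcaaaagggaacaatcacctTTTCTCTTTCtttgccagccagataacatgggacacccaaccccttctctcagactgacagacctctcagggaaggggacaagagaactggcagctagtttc
Adgrg7, chr16:56795809-56796108, minus strand: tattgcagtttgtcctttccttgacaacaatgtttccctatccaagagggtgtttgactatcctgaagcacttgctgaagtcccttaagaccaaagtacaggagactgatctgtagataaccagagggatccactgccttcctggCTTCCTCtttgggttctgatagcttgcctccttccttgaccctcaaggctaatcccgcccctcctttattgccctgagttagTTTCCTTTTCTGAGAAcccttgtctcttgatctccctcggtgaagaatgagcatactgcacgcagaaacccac
Dock10, chr1:80758504-80758803, minus strand: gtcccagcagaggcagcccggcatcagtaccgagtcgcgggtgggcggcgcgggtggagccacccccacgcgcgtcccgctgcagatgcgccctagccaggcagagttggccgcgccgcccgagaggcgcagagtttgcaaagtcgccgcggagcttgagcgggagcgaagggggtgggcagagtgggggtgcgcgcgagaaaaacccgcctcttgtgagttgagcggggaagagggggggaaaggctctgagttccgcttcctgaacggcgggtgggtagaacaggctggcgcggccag
Ptpn22, chr3:103859545-103859844, plus strand: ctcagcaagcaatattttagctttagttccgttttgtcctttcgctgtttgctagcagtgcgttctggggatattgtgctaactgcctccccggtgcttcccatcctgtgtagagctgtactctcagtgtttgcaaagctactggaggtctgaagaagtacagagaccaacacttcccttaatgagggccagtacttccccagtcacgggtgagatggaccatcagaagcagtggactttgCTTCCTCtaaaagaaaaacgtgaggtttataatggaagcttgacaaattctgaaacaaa
The motifs were an interferon element core (GAAA, any 2 bases, GAAA), a STAT site (TTC, any 3 bases, GAA), the octamer (ATGCAAAT), an NF-kB site (GGG, any 2 bases, TTTCC), a PU.1 core (GAGGAAG) and an E-box (CACGTG). The interferon element core was found in the Dpp4 window, from position -52 to -43, and in the Adgrg7 window, from position -23 to -14. Of 32851 windows of the same length, 3.44% held it. The Adgrg7 window also held a STAT site from position -16 to -8, which overlaps the interferon element core and occurred in 8.3% of all windows. Ptpn22 has a second window, not shown, that held a STAT site from position -232 to -224 of its own start. A PU.1 core, found in 13.63% of all windows, was present in the windows of Dpp4, Adgrg7 and Ptpn22. No octamer (1.74% of all windows), NF-kB site (1.63%) or E-box (7.15%) was found in the first window of any of the 6 genes, and the windows of Dock10, Ryr2 and Slamf7 held none of the motifs. The Dock10 window was rich in CG dinucleotides, with 32 where the median window has 7, and 90.5% of all windows had fewer. Dpp4 had 4, Adgrg7 had 3 and Ptpn22 had 6.

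All 10 genes had values that did not overlap between the cultured lines, where 19.4% of the 9983 genes tested did so (by the limma call, 18.5% were higher and 15.8% lower in BAL17VII), and nothing is read from this count because the lines helped to choose the genes. Dock10, Dpp4 and Adgrg7 were the genes that were near background in BAL17 and well above it in BAL17VII. Dock10 ranged from 4.92 to 5.36 (median 5.02) in BAL17 cells and from 10.01 to 10.22 (median 10.14) in BAL17VII cells, a difference of 5.03 ± 0.08 (SE, n = 6 and 6 arrays). Dpp4 ranged from 5.06 to 5.58 in BAL17 and from 8.69 to 8.98 in BAL17VII cells, and Adgrg7 from 5.03 to 5.47 and from 8.57 to 9.03. On no BAL17 array did any of the 3 exceed the array median.

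**Figure D1:**
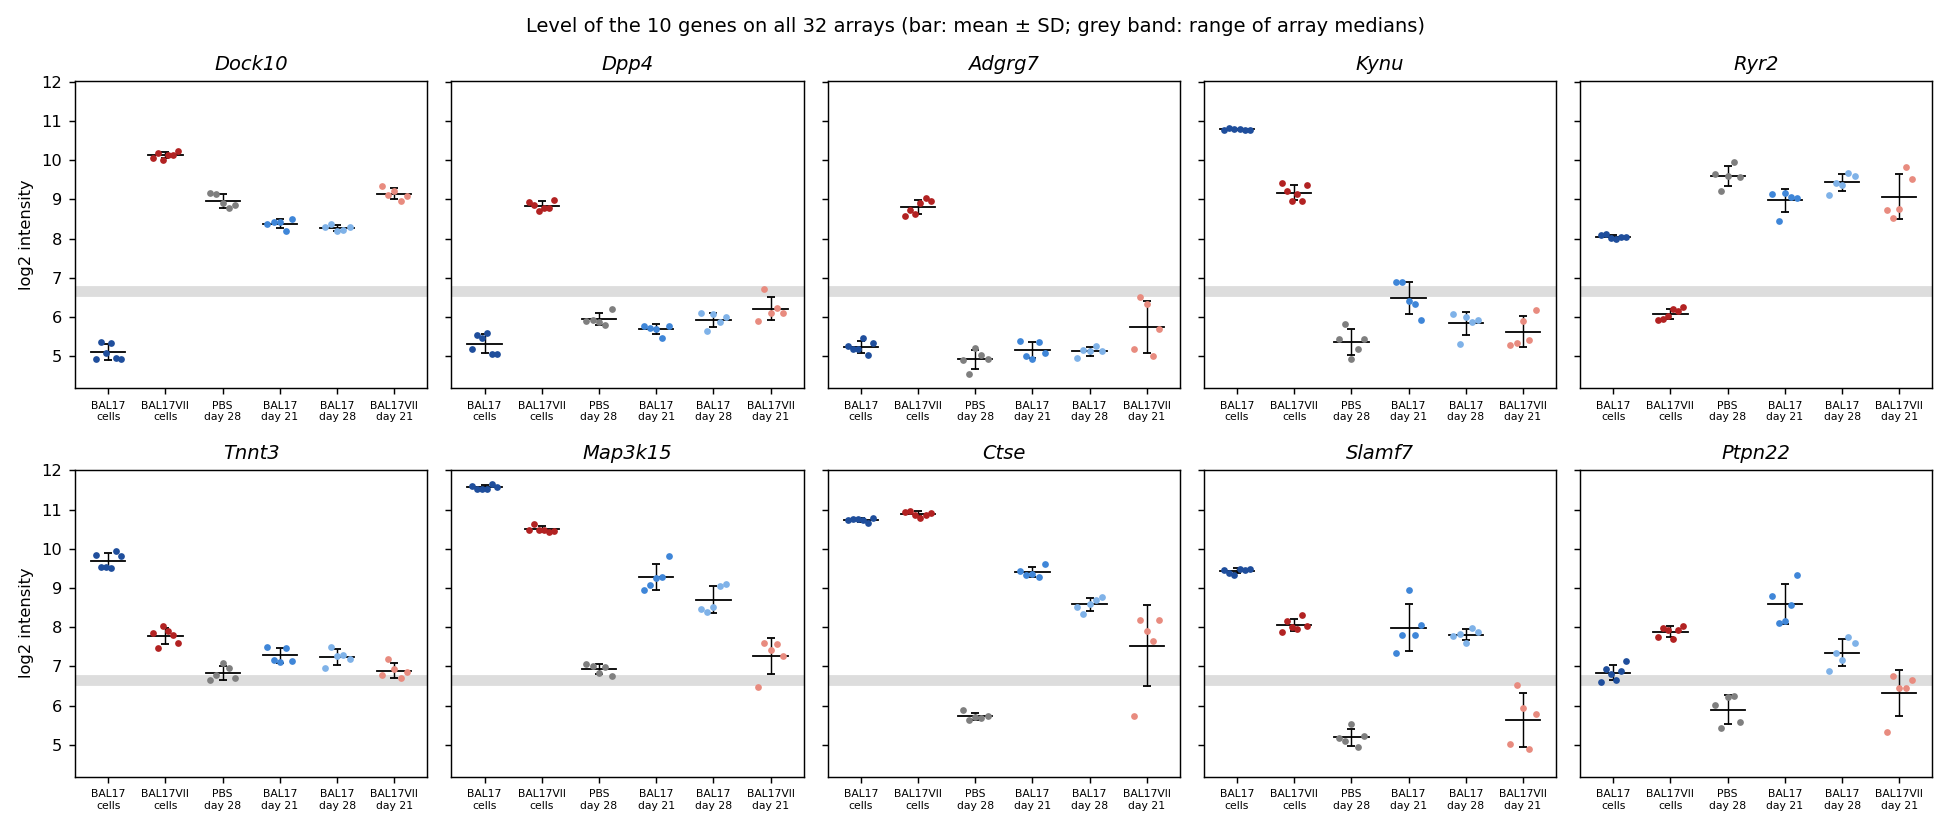
Each panel plots the log2 intensity of a gene on all 32 arrays by group, with points for arrays, bars for the mean ± SD and a grey band for the range of the array medians. Dock10, Dpp4 and Adgrg7 stand below the band in BAL17 cells and above it in BAL17VII cells, while Ctse and Slamf7 lie below it in PBS brains and above it in BAL17 brains.

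Kynu, Ryr2, Tnnt3, Map3k15 and Slamf7 were lower in BAL17VII than in BAL17 cells. Ryr2 was the only one of these that stood below the array median on every BAL17VII array, with values of 5.91 to 6.24 against 7.98 to 8.11 in BAL17 cells. Kynu, Tnnt3, Map3k15 and Slamf7 stayed above the median in both lines. Map3k15 was at 11.57 ± 0.06 (SD, n = 6 arrays) in BAL17 and at 10.50 ± 0.07 in BAL17VII cells, and Kynu at 10.79 ± 0.02 and 9.17 ± 0.20. Ptpn22 was higher in BAL17VII cells, at 7.89 ± 0.14 against 6.84 ± 0.20. Ctse scarcely separated the cultured lines, with 10.80 to 10.97 in BAL17VII and 10.66 to 10.77 in BAL17 cells.

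The difference between the lines took another shape in brains at day 21. Values of 6 of the 10 genes did not overlap between BAL17VII and BAL17 brains, where 10.9% of 10570 genes tested did so (by the limma call, 19.7% were higher and 7.15% lower in BAL17VII brains), and this contrast also helped to choose the genes. The 6 include Dpp4, which was too dim to be among the genes tested. Ctse and Ptpn22, higher in BAL17VII cells in culture, were lower in BAL17VII brains. Map3k15 and Slamf7 were lower in BAL17VII in both settings, by more in brains than in culture. BAL17VII brains also had lower means of 11 B lineage genes (7.08 against 7.75) and of 7 genes of dividing cells (7.29 against 8.21). The part of this lower lymphoma signal in the differences between brains was not tested. Dock10 and Dpp4 were higher in BAL17VII in both settings, and the differences in brains were 0.77 ± 0.09 and 0.53 ± 0.12 (SE), small beside 5.03 and 3.52 in culture. Without BAL17VII replicate 1, a brain described below, they were 0.72 ± 0.09 and 0.60 ± 0.12. Adgrg7, Kynu, Ryr2 and Tnnt3 overlapped between the brains, with differences of 0.59 ± 0.21, -0.87 ± 0.20, 0.10 ± 0.20 and -0.38 ± 0.11, and of 0.74 ± 0.20, -0.78 ± 0.21, 0.19 ± 0.21 and -0.35 ± 0.12 without that replicate. None of these differences between culture and brain was tested, since both contrasts chose the genes.

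**Figure D2:**
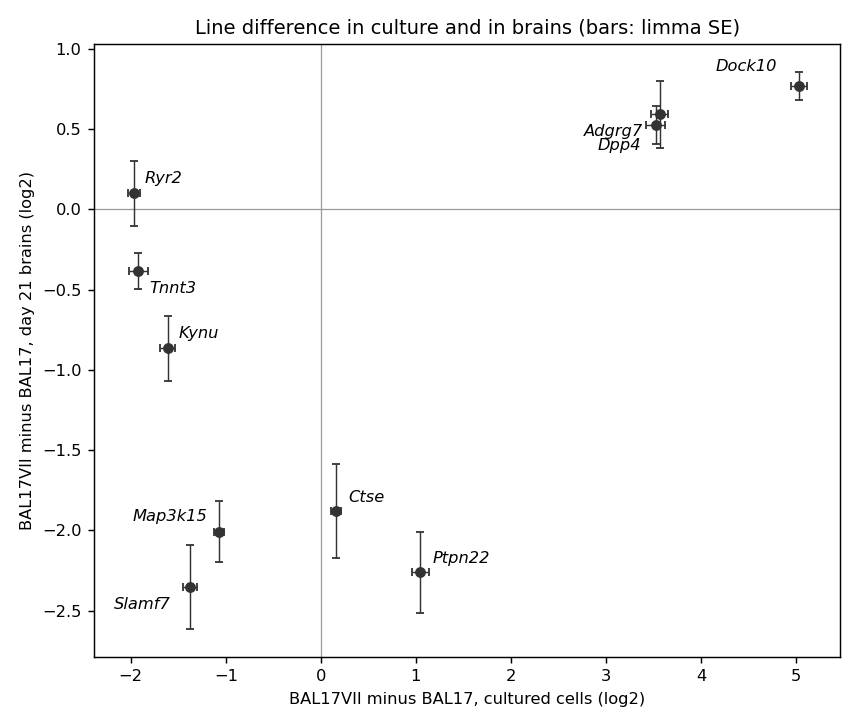
The horizontal axis is the log2 difference between BAL17VII and BAL17 in cultured cells and the vertical axis the same difference in day 21 brains, with limma standard errors as bars. Ctse and Ptpn22 lie to the right of 0 and below it, at -1.88 and -2.26 in brains, while Dock10, Dpp4 and Adgrg7 are higher in BAL17VII on both axes.

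One brain stood apart. BAL17VII replicate 1 had a B lineage mean of 6.11 over 11 genes, within the 5.98 to 6.28 of PBS brains, while the other BAL17VII brains had 7.01 to 7.63, BAL17 brains 7.44 to 7.95 at day 21 and 7.74 to 8.01 at day 28. The mean of 7 genes of dividing cells was 5.55 in this brain, 7.39 to 8.01 in the other BAL17VII brains and 5.39 to 5.63 in PBS brains. In bulk brain tissue, fewer lymphoma cells and less RNA per lymphoma cell cannot be told apart. The BAL17VII differences and percents below that rest on this brain are also given without it. The tissue labels were borne out by markers, with 0 of 11 neuron genes below the array median throughout any brain group, and 8 of 11 B lineage genes below it on every PBS array. In both cultured lines Ms4a1 and Blk of the B lineage list were below it.

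Day 28 BAL17 brains and PBS brains entered neither contrast that chose the genes, and their difference was tested with limma over all 20 brains, with Benjamini-Hochberg adjustment over 10570 genes. The test is not independent of the choice, since the day 28 brains hold the same line and the day 21 brains share in the spread estimate. Genes picked as high in BAL17 brains at day 21 were likely to be high here too. The adjusted p-values below are thus no support for the choice of the genes. Of the 10 genes, 7 exceeded the array median on enough arrays to be tested. Of these, 5 rose and 1 fell, where 9.12% of all genes tested rose and 24.0% fell. The median difference of all 10 was 0.44, beside -0.11 over all genes tested. Ctse, Slamf7 and Ptpn22 lay below the median in every PBS brain and so could be tested only because implanted brains were high, which makes the count no measure of how often such genes rise. Without any filter all 10 genes were tested, and the same 6 were called.

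Ctse had values of 8.52, 8.34, 8.60, 8.70 and 8.78 in BAL17 brains at day 28 and of 5.88, 5.64, 5.72, 5.67 and 5.75 in PBS brains. Every BAL17 brain was far above every PBS brain, and Ctse rose by 2.86 ± 0.29 (SE, n = 5 and 5 brains, limma adjusted p = 6.09e-07). The SE pools the spread of all 20 brains. For Ctse the SD was 1.03 in BAL17VII brains, and 0.17 and 0.09 in the BAL17 day 28 and PBS brains compared. At day 21 the BAL17 brains had 9.43, 9.33, 9.37, 9.29 and 9.62, all above the day 28 brains. The BAL17VII brains had 5.73, 8.17, 7.90, 7.66 and 8.18, of which replicate 1 lay among the PBS brains and the others between PBS and BAL17 brains. Their difference from BAL17 brains at the same day was -1.88 ± 0.29, and -1.43 ± 0.11 without replicate 1. Cathepsin E is also known from phagocytes, and the 10 macrophage markers summed to linear intensities of 1020 to 2110 in BAL17 brains at day 28, 712 to 1079 in PBS brains and 882 to 1004 in BAL17 cells, with Ccr2, Ms4a7, Cd14, Fcgr1 and Msr1 below the array median in all of these, and their part in the rise of Ctse was not tested. The cultured BAL17 cells themselves had Ctse at 10.74.

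Slamf7 rose by 2.61 ± 0.26 at day 28 (limma adjusted p = 6.09e-07). Its values were 7.76, 7.82, 7.60, 7.98 and 7.87 in BAL17 brains and 5.18, 5.10, 5.54, 4.95 and 5.21 in PBS brains, without overlap. At day 21 the BAL17 brains had 7.34, 7.79, 8.95, 7.79 and 8.05, and replicate 3 stood well above the rest. The same brain had Jchain, the joining chain gene of secreted antibody, read after its values were seen, at 9.41, where the other 19 brains ranged from 3.78 to 5.52 and the cultured lines from 3.63 to 4.51. The mean of 7 plasma cell markers was 6.89 in it, against 5.78 to 6.07 in the other BAL17 brains at day 21 and 5.40 to 5.51 in PBS brains, and their sum ran from 453 to 1292 in BAL17 brains at day 21 and from 392 to 411 in PBS brains. Cultured BAL17 cells had sums of 1070 to 1219 for the same list. Sdc1, Prdm1, Irf4 and Tnfrsf17 of that list stayed below the array median in all brains, and the part of plasma cells in Slamf7 was not tested. Without that brain Slamf7 was at 7.75 ± 0.30 (SD, n = 4 brains) in place of 7.99 ± 0.60.

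In BAL17VII brains Slamf7 was at 5.01, 6.54, 5.95, 4.90 and 5.78, below the array median in each. Replicates 1 and 4 lay among the PBS brains or under them. The difference from BAL17 brains at day 21 was -2.35 ± 0.26, -2.20 ± 0.26 without BAL17VII replicate 1 and -2.11 ± 0.24 without BAL17 replicate 3. Replicate 4 had a B lineage mean of 7.01, above PBS brains, without a measurable rise of Slamf7. Cultured BAL17VII cells had 7.25 times the Slamf7 intensity of PBS brains, which ranged from 4.95 to 5.54. As a percent of the rise in culture, described below, Slamf7 was at -3.13% in replicate 4. The B lineage median of BAL17VII brains averaged 7.17%. The Slamf7 value comes from a single brain and lies below the array median, where differences shrink. Whether Slamf7 parted from the lymphoma markers in replicate 4 cannot be told from it and was not tested. BAL17VII cells had Slamf7 at 8.06 in culture.

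**Figure D3:**
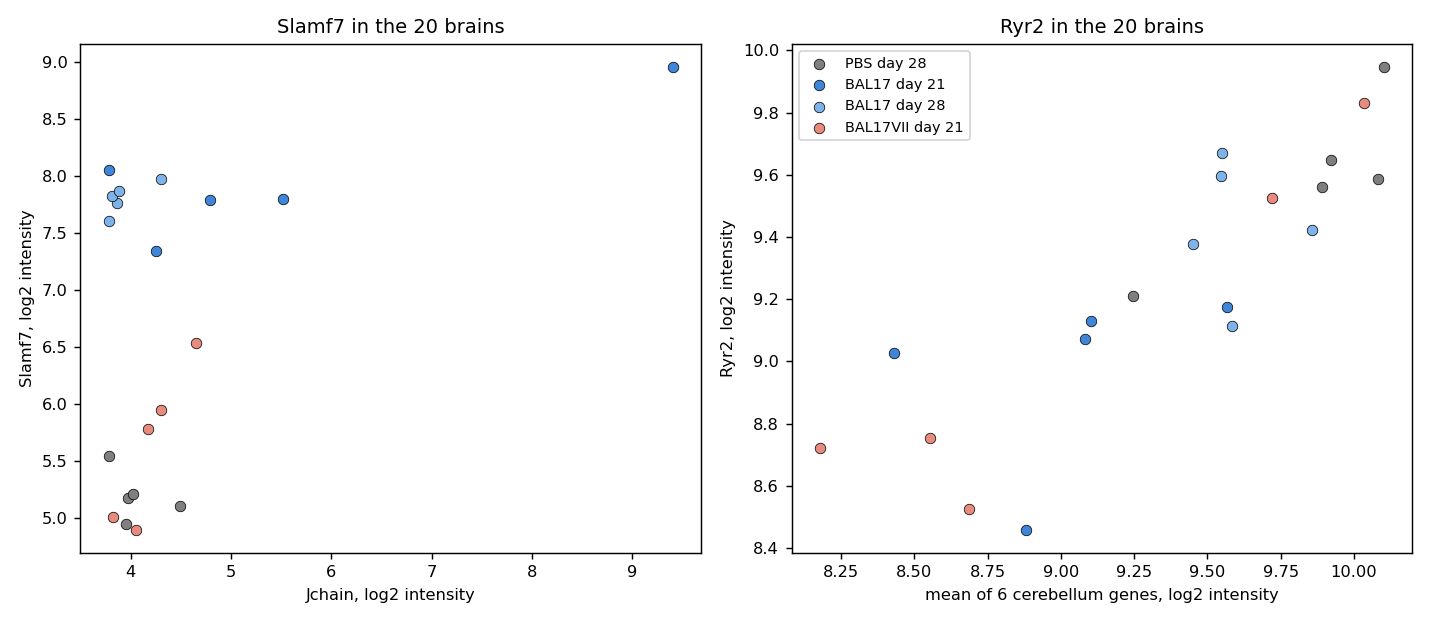
The left panel plots Slamf7 against Jchain and the right panel Ryr2 against the mean of 6 cerebellum genes, all as log2 intensities, with a point for each of the 20 brains coloured by group. BAL17 day 21 replicate 3 stands alone at a Jchain of 9.41, BAL17VII replicates 1, 2 and 3 are low on both axes of the right panel, and BAL17 day 21 replicate 5, at 8.43 and 9.03, is low in the cerebellum mean alone.

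Ptpn22 rose by 1.45 ± 0.25 in BAL17 brains at day 28 (limma adjusted p = 0.000265). It had values of 6.90, 7.36, 7.17, 7.75 and 7.61 there and of 6.02, 5.43, 6.22, 6.25 and 5.59 in PBS brains. At day 21 the BAL17 brains had 8.78, 8.10, 8.16, 8.57 and 9.33, all above every day 28 brain. All 5 were also above the cultured BAL17 cells, which ranged from 6.61 to 7.15. Dock10 and Ryr2 were also higher in these brains than in BAL17 cells without overlap, but PBS brains carried both of them, whereas Ptpn22 was below the array median in every PBS brain. At day 21, BAL17VII brains had 5.32, 6.75, 6.45, 6.44 and 6.67, below the cultured BAL17VII cells at 7.69 to 8.04. The difference between BAL17VII and BAL17 brains at day 21 was -2.26 ± 0.25, and -2.01 ± 0.22 without BAL17VII replicate 1, against 1.05 ± 0.09 in culture.

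T cells carry Ptpn22 as well. The 12 T and natural killer cell markers summed to 769 to 817 in BAL17 brains at day 21, 667 to 968 at day 28, 504 to 1111 in BAL17VII brains and 476 to 532 in PBS brains. The cultured lines had higher sums of the same markers, 1315 to 1436 in BAL17 and 3274 to 3822 in BAL17VII cells. The sums in brains are thus no measure of T cells alone. In each of the implanted groups 10 of the 12, among them Cd3d, Cd4, Cd8a and Gzmb, were below the array median on every array. The part of T cells in the Ptpn22 levels was not tested.

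Map3k15 rose by 1.77 ± 0.19 at day 28 (limma adjusted p = 1.01e-06), with 8.45, 8.39, 8.52, 9.05 and 9.10 in BAL17 brains against 7.06, 7.02, 6.84, 6.99 and 6.77 in PBS brains. At day 21 it had 8.95, 9.09, 9.25, 9.29 and 9.81 in BAL17 brains. The BAL17VII brains had 6.48, 7.60, 7.43, 7.57 and 7.26. Replicate 1 was under every PBS brain and the other 4 were above every PBS brain. Between the lines at day 21 the difference was -2.01 ± 0.19, and -1.81 ± 0.16 without that replicate, where cultured cells differed by -1.07 ± 0.05.

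Tnnt3 rose by 0.40 ± 0.11 at day 28 (limma adjusted p = 0.0121). BAL17 brains had 6.95, 7.50, 7.26, 7.29 and 7.18 and PBS brains 6.65, 6.78, 7.09, 6.96 and 6.72, so replicate 1 of the BAL17 brains lay within the PBS range. At day 21 BAL17 brains lay at 7.12 to 7.50 and BAL17VII brains at 6.71 to 7.19. The cultured BAL17 cells had 9.50 to 9.94. Of 10 skeletal muscle markers, Myh4, Myh1, Myl1, Mylpf and Actn3 were below the array median on every array of the series. The mean of the 10 was 6.39 ± 0.07 (SD, n = 5) in BAL17 brains at day 28 and 6.28 ± 0.16 in PBS brains, and their summed intensities ran from 1823 to 2419 and from 2162 to 2577, a sum that holds Pvalb, which neurons express too. The part of muscle in Tnnt3 was not tested.

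Dock10 fell by 0.69 on the log2 scale with an SE of 0.09 at day 28 (limma adjusted p = 6.12e-06). PBS brains had 9.17, 9.14, 8.90, 8.77 and 8.85, so brain tissue without lymphoma carried the transcript well above the array median. BAL17 brains had 8.28, 8.38, 8.18, 8.22 and 8.30 at day 28 and 8.36, 8.42, 8.42, 8.20 and 8.50 at day 21, below every PBS brain at both days. BAL17 cells, at 5.10, had less than either. Of the marker lists of brain tissue, those of neurons, striatum, choroid plexus, cerebellum and microglia had lower means in BAL17 brains at day 28 as well. Their sums overlapped PBS brains except for neuron genes, while the cortex mean was 8.99 against 8.98. The 11 neuron genes summed to 23903 to 25447 in these BAL17 brains and to 26610 to 28654 in PBS brains. In the same order, the 5 striatum genes summed to 1979 to 3956 and 2990 to 7051, the 6 choroid plexus genes to 1471 to 7724 and 5847 to 9672, the 6 cerebellum genes to 4599 to 6000 and 3951 to 7092, and the 6 microglia genes to 955 to 1339 and 1214 to 1507. Their part in the fall of Dock10 was not tested. The BAL17VII brains, implanted with a line at 10.12, had 9.35, 9.12, 9.21, 8.97 and 9.10 and overlapped the PBS brains. Their highest value was that of replicate 1, the brain whose B lineage markers were at PBS levels.

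Ryr2, high in brain, had a difference of -0.15 ± 0.20 at day 28 that was not called (limma adjusted p = 0.576). BAL17 brains had 9.11, 9.42, 9.38, 9.67 and 9.59 and PBS brains 9.65, 9.21, 9.59, 9.95 and 9.56. BAL17VII brains fell apart into 8.72, 8.53 and 8.75 in replicates 1 to 3 and 9.83 and 9.53 in replicates 4 and 5. The mean of 6 cerebellum genes was 8.18, 8.69 and 8.55 in the former and 10.04 and 9.72 in the latter. In PBS brains the lowest Ryr2 value, 9.21 in replicate 2, came with the lowest cerebellum mean, 9.25. Among BAL17 brains at day 21 this was not so, since Ryr2 was lowest in replicate 2 (8.46) and the cerebellum mean in replicate 5 (8.43), where Ryr2 was at 9.03. The part of cerebellar tissue in Ryr2 was not tested. The difference between the cultured lines, -1.97 ± 0.06, had no counterpart in day 21 brains, at 0.10 ± 0.20 and 0.19 ± 0.21 without BAL17VII replicate 1, and the first value has no settled sign: it was -0.021 under quantile normalization, -0.090 without BAL17VII replicate 4, -0.014 without BAL17VII replicate 5 and -0.029 without BAL17 replicate 2.

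Kynu, Dpp4 and Adgrg7 were too dim in brains for the main test. Kynu had 6.07, 5.31, 5.99, 5.88 and 5.92 in BAL17 brains at day 28 and 5.43, 5.83, 4.92, 5.18 and 5.44 in PBS brains, with overlap. At day 21 it had 6.90, 6.88, 6.41, 6.34 and 5.92 in BAL17 brains, all above every PBS brain, and only 2 of these exceeded the array median. BAL17 cells in culture had 10.79 ± 0.02 (SD, n = 6 arrays). Dpp4 in BAL17VII brains had 5.90, 6.71, 6.11, 6.22 and 6.11, with PBS brains at 5.80 to 6.20 and cultured BAL17VII cells at 8.84. Adgrg7 reached 6.52, 6.32 and 5.71 in BAL17VII replicates 2, 3 and 5 and stayed at 5.17 and 5.01 in replicates 1 and 4, with PBS brains at 4.55 to 5.20. Without replicate 1 the difference of BAL17VII from PBS brains was 0.97 ± 0.20 for Adgrg7 and 0.35 ± 0.12 for Dpp4. For the test at day 28 without a filter, limma gave adjusted p = 0.103 for Kynu, 0.977 for Dpp4 and 0.533 for Adgrg7.

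Against PBS brains, 9 of the 10 genes did not overlap in BAL17 brains at day 21, where 28.6% of all genes tested did so, and 5 did not overlap at day 28, where 24.2% did. The 9 include Dpp4 and Kynu, which were too dim to be among the genes tested. The day 21 brains helped to choose the genes, and the PBS brains are of day 28. None of the 10 separated all 5 BAL17VII brains from PBS brains, where 3.94% of all genes did. Without BAL17VII replicate 1, Ctse (2.25 ± 0.11), Map3k15 (0.53 ± 0.16) and Ptpn22 (0.68 ± 0.22) were above every PBS brain. The share of all genes that did so without this brain was not computed, and 3.94% is no measure of it. Nothing is thus read from how many of the genes did. From day 21 to day 28 in BAL17 brains, Ctse and Ptpn22 were lower without overlap (5.55% of all genes did not overlap), by -0.82 ± 0.29 and -1.23 ± 0.25. BAL17VII brains at day 21 lay below BAL17 brains at day 28 in Map3k15, Ctse, Slamf7 and Ptpn22 and above them in Dock10, where 8.28% of all genes did not overlap, and the difference in Ctse was -1.06 ± 0.29, or -0.61 ± 0.11 without replicate 1. These comparisons share day 21 or PBS arrays with each other and carry no test.

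To follow the genes from culture into brain, the rise of linear intensity over the PBS mean was expressed as a percent of the rise in the implanted line, for genes whose line mean was at least 2 times the PBS mean. In BAL17 brains at day 21, Ctse reached 38.0% ± 3.8 (SD, n = 5 brains) and Map3k15 17.5% ± 5.4. Slamf7 reached 36.0% ± 19.7, and 27.5% ± 6.5 without replicate 3. Tnnt3 reached 5.7% ± 3.0 and Kynu 2.95% ± 1.48. The median over 9 B lineage genes was 19.1% ± 4.4, and the means of these 9 genes ran from -8.24% for Ebf1 to 40.7% for Pou2af1. Kynu and Tnnt3 thus stood below the B lineage median in every brain, and Ctse above it in every brain.

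At day 28 the B lineage median was 21.2% ± 2.2. Ctse was at 20.2% ± 2.7 and Slamf7 at 28.5% ± 3.2, while Map3k15 was at 10.4% ± 3.6, Tnnt3 at 5.1% ± 2.9 and Kynu at 0.93% ± 0.62. Between the days the percent for Ctse was lower at day 28, without overlap (34.6% to 44.3% at day 21, 16.4% to 23.3% at day 28), and the B lineage median was not. In BAL17VII brains the B lineage median was 7.17% ± 5.35. Ctse (8.71% ± 5.26), Slamf7 (7.47% ± 11.1), Adgrg7 (6.62% ± 6.32) and Ptpn22 (13.3% ± 15.1) had wide spreads that span it. Dpp4 was at 3.53% ± 4.33, Map3k15 at 2.79% ± 3.21 and Kynu at 1.65% ± 2.73. Without replicate 1 the B lineage median was 9.05% ± 3.83 (SD, n = 4 brains), with Ptpn22 at 19.7% ± 5.9, Ctse at 10.9% ± 2.3, Slamf7 at 9.86% ± 11.2, Adgrg7 at 7.96% ± 6.43, Dock10 at 7.46% ± 6.08, Dpp4 at 4.52% ± 4.30, Map3k15 at 4.12% ± 1.42 and Kynu at 2.18% ± 2.84. Other single brains counted too, since without replicate 2 Slamf7 was at 3.31% and Dpp4 at 1.69%, and without replicate 5 Kynu was at 0.62%. Dock10 had 24.4% in replicate 1, where the B lineage median was -0.341%, so this measure does not follow lymphoma markers for a gene that brain tissue carries.

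**Figure D4:**
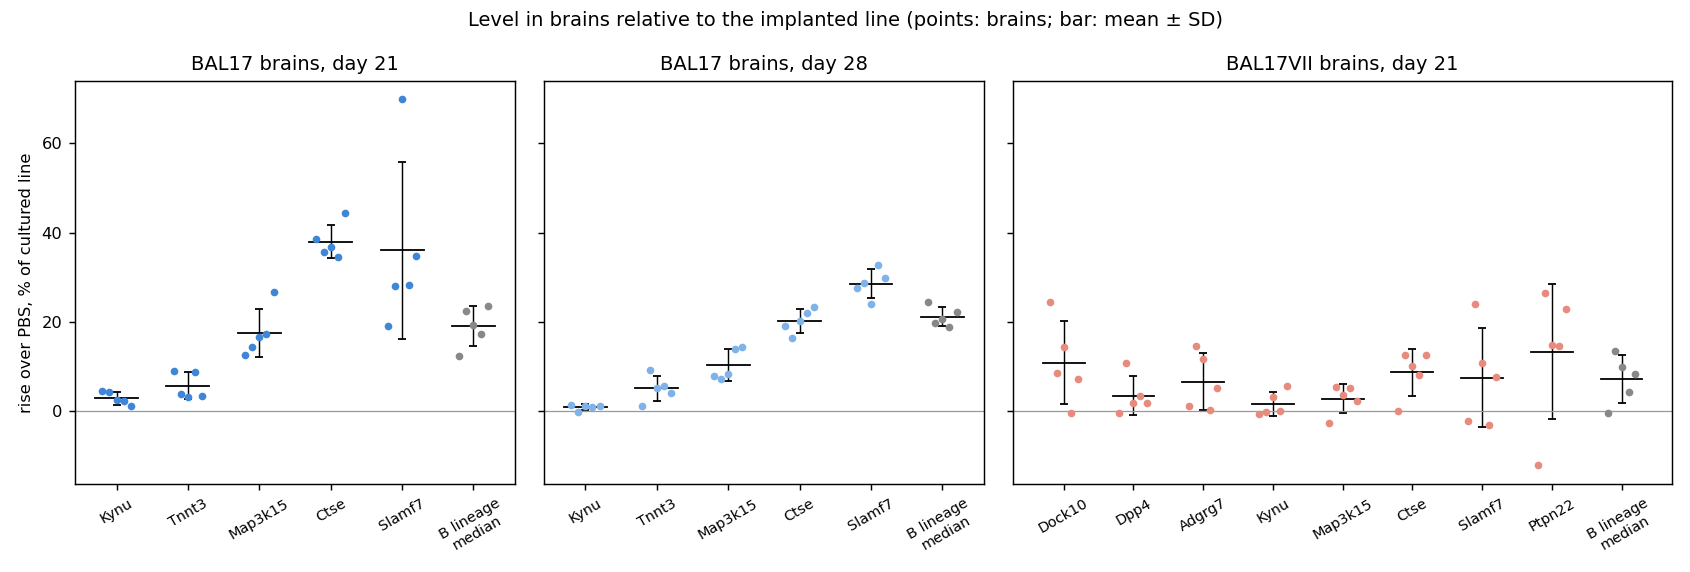
Points are brains, bars the mean ± SD, and the vertical axis the rise over PBS as a percent of the rise in the implanted line, with the median over 9 B lineage genes in grey. Kynu and Tnnt3 lie under the B lineage median in BAL17 brains at both days, and Ctse lies over it at day 21 and level with it at day 28.

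Relatives of the 10 genes, from families and pathways listed by function, were tested on their own. Of 113 on the array, 67 were tested between the cultured lines and 24 rose and 5 fell in BAL17VII (43.3%, where 34.2% of all genes were called), with a median difference of 0.07 against 0.00 over all genes. Cathepsins were the list with the most rises, 8 of 12, with Ctsl at 1.66 ± 0.14 and Ctsh, of the smallest adjusted p, at 1.38 ± 0.08, while Ctse itself hardly differed. Of 4 SLAM family genes 2 rose, Cd48 by 2.80 ± 0.12 and Ly9 by 0.45 ± 0.07, where Slamf7 was lower. Of 6 other DOCK genes Dock8 (1.44 ± 0.07) and Dock2 (0.27 ± 0.06) rose. Of 4 kynurenine pathway genes tested Haao rose (0.74 ± 0.09) and the other 3 were not called. Kmo, below the filter, was at 6.59 in BAL17VII and 5.23 in BAL17 cells without overlap, and the other untested genes of that list overlapped. Of 8 calcium release genes Itpr2 rose and Casq1 fell.

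Between the day 21 brains of the lines, 11 of 76 relatives tested were higher and 9 lower in BAL17VII brains (26.3%, close to the 26.9% of all genes), and 12 were called without BAL17VII replicate 1. Against PBS at day 28, 20 of 76 relatives rose and 21 fell (53.9%, where 33.2% of all genes were called), with a median of -0.16 against -0.11. All 3 tested SLAM family genes rose, with Ly9 at 1.26 ± 0.20, Cd48 at 1.13 ± 0.21 and Slamf9 at 0.61 ± 0.12. Of the DOCK genes 3 rose, with Dock2 at 2.22 ± 0.22, and 3 fell, with Dock5 at -0.51 ± 0.11. Relatives that are dim in PBS brains could be tested only where implanted brains were high.

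Over all 32 arrays, the genes whose levels were most like those of the 10 differed from gene to gene. Myc (r = 0.995) and the division gene Mki67 (r = 0.987) were most like Ctse, the germinal centre gene Rgs13 (r = 0.987) and Casp4 (r = 0.960) most like Slamf7, and Cobll1 (r = 0.961) and Plxnc1 (r = 0.956) most like Dock10. P2rx7 (r = 0.961) was most like Dpp4, Slfn8 (r = 0.971) most like Adgrg7, Ttc41 (r = 0.983) most like Kynu, Scaf11 (r = 0.982) most like Map3k15, Med14 (r = 0.969) most like Ryr2 and Scd4 (r = 0.970) most like Tnnt3. Ptpn22 had no gene as close, with Klk4 (r = 0.870) first. The correlations describe 32 arrays of 6 groups among 12315 genes and span the steps between those groups.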

How the data were processed

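Affymetrix whole-transcript arrays of 12 cultured line samples and 20 mouse brains were analysed. The deposited values are intensities that, per the submitters' processing notes, came from Expression Console and the RMA method; versions are not given in the sources used here. They run from 2.72 to 17825 on a linear scale, and log2 was taken. Sections and Trizol are named as the source of RNA for every sample, per the labels' protocols. Of 35556 probe sets, 21789 carried 1 gene symbol, 1621 several and 12146 none. Where a gene had several probe sets, the one of highest mean over 32 arrays stood for it. Arrays give no read depth, and their number limits the precision.

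Fits used limma 3.58.1 in R 4.3.3 with group means, eBayes, two-sided tests, Benjamini-Hochberg adjusted p-values and calls at an adjusted p under 0.05. A probe set was tested where it exceeded the array median on at least 6 line arrays or 5 brain arrays. Standard errors of genes too dim for this come from a fit without the filter. The genes, lists and motifs were chosen with earlier results of these data known. Named besides the 10 genes are the relative with the smallest adjusted p of a list and the genes most like each in level, and Jchain, Ctsl, Ly9, Dock2, Dock5, Casq1, Kmo and Slamf9 were named after their values were seen. The fits were tested on simulated data with changes of a smaller and a larger size put in. The fit of the lines recovered 93% of the smaller and 100% of the larger changes, and 6.31% of its 206 calls were false. The fit of day 28 against PBS brains recovered 75% and 99%, and 1.14% of its 176 calls were false. Alternatives covered normalization, filters, moderation, weights, a replicate block, arrays in the fit and leaving out each array.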

Additional observations from a re-analysis of the deposited data

Results flagged for a closer look

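Of 60 sets of values (10 genes in 6 groups), 7 held an array far from the rest of its group, where chance gives about 1 in 20. BAL17VII day 21 replicate 1 was the lowest of its group in Ctse (5.73) and in Ptpn22 (5.32), and it is the brain whose lymphoma markers lay at PBS levels. Ryr2 was low in BAL17 day 21 replicate 2 (8.46), where the cerebellum mean was 8.88. The others were Dpp4 in BAL17 day 21 replicate 4 (5.47, low), Kynu in BAL17 day 28 replicate 2 (5.31, low), Map3k15 in BAL17VII cells replicate 2 (10.65, high) and Ctse in BAL17 cells replicate 5 (10.66, low).

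For Ctse and Ptpn22 every BAL17VII array in culture was above every BAL17 array, and every BAL17VII brain was below every BAL17 brain at day 21. The differences in brains were -1.88 for Ctse and -2.26 for Ptpn22, against 0.16 and 1.05 in culture. The B lineage median was also lower in BAL17VII brains, at 7.17% of the rise in culture, or 9.05% without replicate 1. It was 19.1% in BAL17 brains at day 21, and the part of this in the differences was not tested. The change of direction itself was not tested, because both contrasts chose the genes.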

How the results depend on the processing

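The count of 6 genes called between BAL17 brains at day 28 and PBS brains was 3 with the filter at percentile 75, where Tnnt3, Slamf7 and Ptpn22 were too dim to be tested, 7 with all 32 arrays in the fit, and 6 in each fit that left out an array. It was also 6 without the BAL17VII brain at PBS levels, an alternative chosen after seeing the data. Tnnt3 missed a threshold of 0.01. Called relatives in that comparison numbered 41, with 34 to 42 on leaving out an array, 16 with the filter at percentile 75 and 6 with a change of at least 1 as well. Between the cultured lines they numbered 29, with 24 to 30 on leaving out an array and 4 with a change of at least 1. Between the day 21 brains they numbered 20, with 12 to 26 on leaving out an array, 12 without the BAL17VII brain at PBS levels, 8 with the filter at percentile 75, 10 with only the arrays of both groups, 10 at a threshold of 0.01 and 0 with a change of at least 1. The cause was not tested beyond the fewer genes or arrays that these settings leave. With the lowest or highest PBS value as the zero level, Kynu in BAL17 brains at day 28 reached 1.60% or 0.062% of its cultured level. With the highest, Dock10 was at -1.40%, Kynu at -1.15%, Dpp4 at 0.58%, Slamf7 at 3.49% and Ptpn22 at 5.34% in BAL17VII brains, and Tnnt3 at 2.90% and 2.27% in BAL17 brains at days 21 and 28. With the lowest, Dock10 was at 19.5%, Kynu at 3.74% and Ptpn22 at 21.4% in BAL17VII brains. Ctse stayed within 1.5 times its value in all 3 groups of brains. The Ryr2 difference between day 21 brains turned to -0.021 under quantile normalization and ran from -0.090 to 0.24 on leaving out each array. No other log2 difference of the 10 genes between the lines or between day 21 brains changed sign on leaving out an array, another normalization or the mean of probe sets, and none of the 7 tested at day 28 did under any alternative that could test it. Leaving out arrays for the untested differences and the percent values was chosen after seeing the data. With the replicate number as a block, 6 of the 10 genes were called at day 28, and 43, 29 and 21 relatives at day 28, between the lines and between the day 21 brains. Arrays with the same number did not deviate together throughout, and not every array correlated best with its own number. The r ran from -0.099 to 0.235 at day 28 and from -0.155 to 0.345 for the day 21 brains. For the lines it ran from -0.002 to 0.174, where replicates 1, 2 and 4 correlated best with their own number. Signal near background limits Dpp4, Adgrg7 and Kynu in brains.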

Other observations

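The nearest genes on the array on each side of the 10 were read from the gene order of GRCm38.p6, an addition made after the values were seen. Of 40 such neighbours, 17 were tested between the cultured lines, and 9 rose and 2 fell in BAL17VII in limma, where 34.2% of all genes were called. Around Dock10 (5.03) the next gene on either side differed little, with Cul3 at 0.08 ± 0.05 and Nyap2, below the filter, at 0.14. Around Adgrg7 (3.57), Tfg rose by 0.19 ± 0.05 (adjusted p = 0.0103), and Tmem45a, below the filter, differed by 0.30. Next to Dpp4 (3.52), Slc4a10 went from 5.71 to 6.80, a difference of 1.09 below the filter, and Gcg differed by 0.10. Slamf7 lies between Ly9 and Cd48, which rose by 0.45 and 2.80 where Slamf7 was lower. Kynu, lower in BAL17VII, is followed by Arhgap15, which rose by 0.70 ± 0.09 (adjusted p = 8.44e-06). Bclaf3, close to Map3k15, fell with it, by -0.62 ± 0.07 (adjusted p = 3.69e-06), while Sh3kbp1 on the same side rose by 0.44 ± 0.05.

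Between the day 21 brains, 6 of 24 tested neighbours were called, a share close to the 26.9% of all genes. Abi3bp, a matrix gene near Adgrg7, was higher in BAL17VII than in BAL17 brains by 1.44 ± 0.13 (limma adjusted p = 1.06e-06), at 7.98 against 6.54. PBS brains had 7.74, so the BAL17 brains were the low ones. The cultured levels of Abi3bp were 5.53 in each line. At day 28 BAL17 brains differed from PBS brains by -0.56 ± 0.13 in this gene.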
